A study of Ovis aries with 8 samples.

Results

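The transcripts of 10 genes of the kisspeptin neuron and the gonadotrophin-releasing hormone (GnRH) axis were followed in the mediobasal hypothalamus of food-restricted and well-fed ewes. They were taken by symbol from a table of 33609 genes, and all 10 were found once and were among the 18193 genes with enough reads to be tested. The animals were adult Ile-de-France ewes, fed ad lib or food-restricted, 30 per group in each of 2 years and 60 per group in all. RNA was extracted from each ewe and mixed at random in equal amounts into pools of 15, giving 4 sequencing libraries per group. The severity and length of the restriction, the season, the ovarian state of the ewes and the year of each pool are unknown from the labels. In the text n counts pools, and a difference between pools is one between mixes of 15 ewes.

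Kisspeptin neurons of the arcuate nucleus are called KNDy neurons after their 3 peptides. Kisspeptin (KISS1) drives GnRH release through its receptor KISS1R. Neurokinin B (TAC3) excites the KNDy neurons themselves through TACR3, and dynorphin (PDYN) restrains them through the kappa opioid receptor OPRK1. Oestradiol and progesterone act back on these neurons through ESR1 and PGR, while NPVF encodes the RFamide peptides also known as gonadotrophin-inhibitory hormone. In sheep most GnRH neurons lie in the preoptic area, in front of the tissue sampled here, and fewer lie in the mediobasal hypothalamus.

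Libraries held between 36192025 and 48125991 counted reads, and levels are given as CPM, read counts scaled by TMM to the size of each library. The tissue was checked by markers. Other arcuate peptide genes were present in every pool, with the sum of AGRP, NPY, POMC, CARTPT and GHRH from 388 to 769 CPM with restriction and from 218 to 777 CPM in fed ewes. The sum of 6 general neuron markers was 2310 to 2720 CPM with restriction and 2360 to 2650 CPM in fed ewes. The pools were less alike in the sum of AVP and OXT, the vasopressin and oxytocin genes of magnocellular neurons. It was 37.2 to 289 CPM with restriction and 27.3 to 250 CPM in fed ewes. Markers of gonadotrophs and the pars tuberalis, which are pituitary tissue, were present as well. The sum of LHB, FSHB, CGA, TSHB and GNRHR was 918 to 1520 CPM with restriction and 911 to 1610 CPM in fed ewes. Most of it was CGA, at 827 to 1470 CPM over all pools. The part of pituitary cells in the levels of the axis genes was not tested. The first principal component of all tested genes (34.7% of the variance) set food-restricted pools 1 and 2 and well-fed pools 3 and 4 apart from the other 4 pools, 2 of each group on each side. AGRP, the hunger peptide of neighbouring arcuate neurons, was the 1 tested gene called between the feeding groups, which is 0.0055% of the genes tested (edgeR quasi-likelihood test, adjusted p = 0.0296). In such tissue, fewer cells of a type and less RNA per cell cannot be told apart.

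None of the 10 axis genes was called between food-restricted and well-fed pools (edgeR quasi-likelihood, adjusted p = 1 for each). In the fit, 7 were lower with restriction and 3 were higher, and their median log2 fold change was -0.13, beside 0.01 over all genes tested. At an unadjusted p under 0.05 there was 1 of the 10, TAC3, where 1.7% of all tested genes passed that mark. The feeding groups overlapped in all 10 genes, and they did not overlap in 1.6% of all tested genes. No axis gene was called under any of 18 alternative analyses, among them DESeq2 and limma voom, in which the lowest adjusted p of any of the 10 was 0.799. The plot of levels by pool shows the 10 genes side by side.

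**Figure D1:**
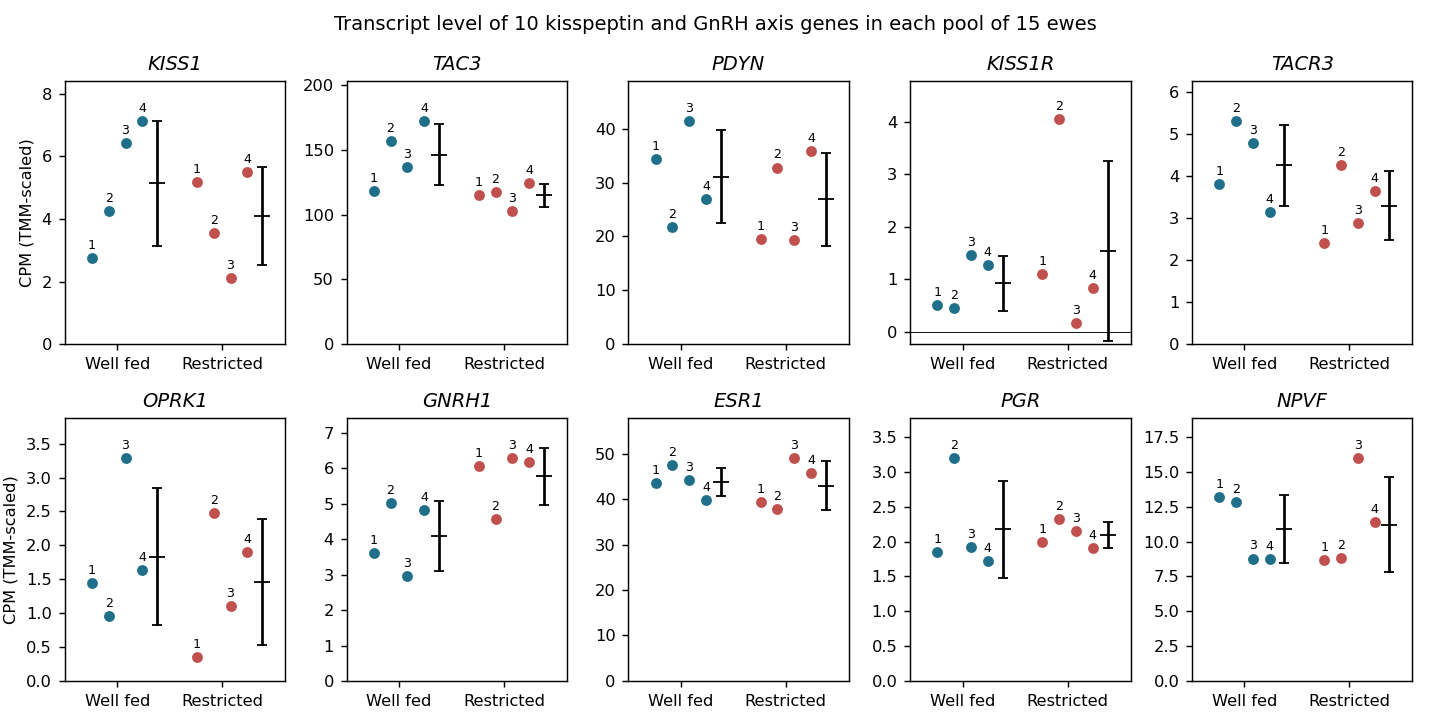
TMM-scaled CPM (y axis, linear, its own range for each gene) of 10 kisspeptin and GnRH axis genes in the 4 well-fed and 4 food-restricted pools. Points are pools with their replicate number, and the bar beside them is the mean ± SD. The groups overlap in each panel, and they come closest to parting in TAC3 and GNRH1.

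TAC3, the precursor of neurokinin B, had the smallest p of the 10 genes and was lower with restriction. It was at 115, 117, 103 and 124 CPM in food-restricted pools 1 to 4 and at 118, 157, 137 and 172 CPM in well-fed pools 1 to 4. All 4 food-restricted pools lay below the median of the fed pools, and the groups met only because food-restricted pool 4 stood above well-fed pool 1. Means were 115 ± 8.78 and 146 ± 23.6 CPM (SD, n = 4 each). This is a log2 fold change of -0.35 with a 95% interval of -0.63 to -0.06, or 0.787-fold. The unadjusted p was 0.0228 in edgeR, and 110 of the tested genes, TAC3 included, had a p as small. Permuting the pools over the groups exactly gave a two-sided p of 0.0571 (n = 4 each), where no p under 0.0286 is possible. TAC3 was spread more among fed pools (coefficient of variation 16.2%) than among restricted pools (7.66%), and counting alone would give 1.36% at its depth of 4402 to 6553 reads. The difference went the same way on both sides of the first principal component, at -0.27 on the log2 scale in the 4 pools of one side and -0.40 in the other 4.

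KISS1, the kisspeptin precursor, was covered by 91 to 308 reads per pool. It was at 5.17, 3.54, 2.12 and 5.50 CPM in food-restricted pools 1 to 4 and at 2.75, 4.24, 6.42 and 7.12 CPM in well-fed pools 1 to 4. The highest pools were well-fed 3 and 4, but the lowest were one of each group, food-restricted 3 and well-fed 1. The log2 fold change was -0.33 (95% interval -1.13 to 0.47), or 0.797-fold, which is close to the estimate for TAC3 and far less precise. Pools of the same group varied by 38.3% (restricted) and 39.2% (fed), against 7.21% from counting. Within the 2 sides of the first principal component the difference was 0.00 and -0.65 on the log2 scale. In a RefSeq table of another sheep assembly KISS1 overlaps a long non-coding RNA gene, whose reads cannot be told apart here if strand was not used in counting. TACR3, OPRK1 and ESR1 overlap other genes there too, but those have counts of their own here, unlike the RNA gene. How reads shared between them were assigned is unknown.

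PDYN, the dynorphin precursor, was mixed between the feeding groups, with 2 pools of each among its 4 highest. It was at 19.6, 32.8, 19.3 and 35.8 CPM in food-restricted pools 1 to 4 and at 34.4, 21.7, 41.4 and 26.9 CPM in well-fed pools 1 to 4. Food-restricted pools 2 and 4 and well-fed pools 1 and 3 were thus the 4 highest, which is neither side of the first principal component. The step from 26.9 to 32.8 CPM below them was of a size with others, such as 35.8 to 41.4 CPM. This is therefore a ranking of pools and not 2 separate levels. Between the feeding groups the log2 fold change was -0.21 (95% interval -0.77 to 0.35), or 0.863-fold, and within the sides of that component it was -0.05 and -0.40. PDYN had 829 to 1987 reads per pool, for which counting gives a coefficient of variation of 2.84%, and the observed values were 32.1% (restricted) and 27.7% (fed). Dynorphin is also made by vasopressin neurons of the supraoptic and paraventricular nuclei. AVP, the vasopressin gene, was at 127, 236, 35.0 and 72.2 CPM in food-restricted pools 1 to 4 and at 26.4, 30.8, 148 and 213 CPM in well-fed pools 1 to 4. Of the 4 pools highest in AVP, food-restricted 2 and well-fed 3 were also among the 4 highest in PDYN, and food-restricted 1 and well-fed 4 were not. The part of vasopressin neurons in the PDYN levels was not tested.

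The relative levels of the 3 KNDy precursors were compared within each pool, where library size and scaling cancel. Reads were not divided by transcript length, so a ratio is compared only between pools and does not rank the genes. Of the reads of the 3 precursors together, KISS1 took 2.76 ± 0.913% with restriction and 2.76 ± 0.852% in fed pools, PDYN 18.2 ± 3.95% and 17.4 ± 5.71%, and TAC3 79.1 ± 4.01% and 79.8 ± 5.67% (SD, n = 4 each). The average shares of the 3 precursors were thus the same to within 1 SD in both groups, while single pools were far apart. These are reads of the whole tissue and not of KNDy neurons alone, since PDYN is also made by vasopressin neurons. The KISS1 share ran from 1.71% in food-restricted pool 3 (exact binomial 95% interval 1.38 to 2.10%) to 3.69% in food-restricted pool 1 (3.23 to 4.20%). The PDYN share ran from 11.9% in well-fed pool 2 (11.1 to 12.7%) to 22.5% in well-fed pool 3 (21.6 to 23.3%). These intervals cover counting error only, and both extremes of each share came from within 1 feeding group.

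For every 100 TAC3 reads there were 4.49, 3.04, 2.07 and 4.44 KISS1 reads in food-restricted pools 1 to 4 and 2.33, 2.70, 4.70 and 4.15 in well-fed pools 1 to 4. The log2 ratio differed by 0.01 between the groups (exact two-sided permutation p = 1, n = 4 each), and shifts between -1.17 and 0.94 were not refused by that test. Each group held pools near the low and near the high end of this range. For every 100 TAC3 reads there were 17.0, 28.1, 18.8 and 28.9 PDYN reads in food-restricted pools 1 to 4 and 29.3, 13.9, 30.3 and 15.7 in well-fed pools 1 to 4. No pool lay between 18.8 and 28.1, and each side of that gap held 2 pools of each group. The difference of the PDYN to TAC3 log2 ratio was 0.11 (exact permutation p = 0.686, n = 4 each; shifts from -0.83 to 1.06 not refused). The KISS1 to PDYN log2 ratio differed by -0.10 (exact permutation p = 0.80, n = 4 each; shifts from -1.28 to 1.72 not refused), and adjusted over the 3 ratios each p was 1. These intervals leave room for changes of about the size seen between single pools. Each of the 3 differences changed sign without 1 pool or another, between -0.16 and 0.24 for KISS1 to TAC3, between -0.09 and 0.29 for PDYN to TAC3 and between -0.43 and 0.14 for KISS1 to PDYN.

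**Figure D2:**
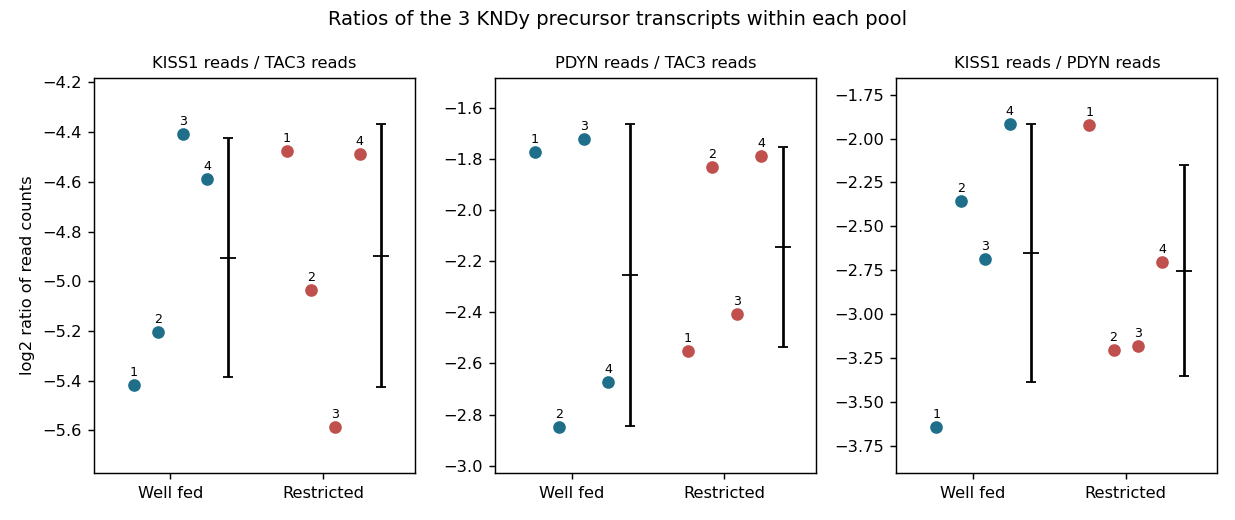
Log2 ratio of read counts (y axis) for each pair of KNDy precursors in the 4 well-fed and 4 food-restricted pools, with replicate numbers and the mean ± SD beside them. In the PDYN to TAC3 panel 2 pools of each group lie at 28.1 to 30.3 PDYN reads per 100 TAC3 reads and 2 of each group at 13.9 to 18.8.

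Whether the 3 peptides varied together between pools was examined on log2 CPM over the 8 pools. KISS1 and TAC3 had a Pearson r of 0.70 (exact permutation p = 0.0549, adjusted over the 3 pairs 0.165) and a Spearman rho of 0.71 (exact permutation p = 0.0576, adjusted 0.173). Without food-restricted pool 3 and well-fed pool 1, the 2 pools farthest from the median of KISS1, r was 0.47, and on deviations from the group means it was 0.74 (exact permutation p = 0.0469, adjusted 0.141). The relation between KISS1 and TAC3 therefore did not pass after adjustment. Leaving out the extremes of KISS1 narrows its range and tends to lower r, so the value of 0.47 cannot show whether the relation leaned on those pools. PDYN and TAC3 had r = 0.12 and rho = 0.43 (exact permutation p = 0.768 and 0.299, adjusted 0.768 and 0.299), and r was -0.65 without food-restricted pools 1 and 3. KISS1 and PDYN had r = 0.31 and rho = 0.43 (exact permutation p = 0.437 and 0.299, adjusted 0.656 and 0.299), and r was 0.21 without food-restricted pool 3 and well-fed pool 1. The 4 pools on each side of the first principal component are too few for values within the sides.

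The receptors of the 3 peptides were low transcripts with wide intervals. TACR3, the neurokinin B receptor, was at 2.41, 4.26, 2.87 and 3.63 CPM in food-restricted pools 1 to 4 and at 3.80, 5.30, 4.77 and 3.15 CPM in well-fed pools 1 to 4. All 4 restricted pools were below the median of the fed pools, food-restricted pool 2 only just. The ranges overlapped more than for its ligand TAC3. Food-restricted pool 2 stood above well-fed pools 1 and 4, and food-restricted pool 4 above well-fed pool 4. Its log2 fold change was -0.37 (95% interval -0.94 to 0.20), or 0.773-fold, and an exact permutation test gave p = 0.20 (n = 4 each). The difference had the same sign on both sides of the first principal component (-0.47 and -0.27).

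OPRK1, the dynorphin receptor, was at 0.351, 2.47, 1.10 and 1.90 CPM in food-restricted pools 1 to 4 and at 1.45, 0.962, 3.29 and 1.63 CPM in well-fed pools 1 to 4. Food-restricted pool 1 was the lowest and well-fed pool 3 the highest, 9.38-fold apart, with 15 to 158 reads per pool. As with PDYN, food-restricted pools 2 and 4 were above food-restricted pools 1 and 3, and well-fed pool 3 was the highest of all. Unlike in PDYN, well-fed pool 4 was above well-fed pool 1. Pools of the same group varied by 63.6% (restricted) and 55.2% (fed), against 11.9% from counting. Its log2 fold change of -0.34 (95% interval -1.59 to 0.91) became 0.12 without well-fed pool 3. On the 2 sides of the first principal component the difference had opposite signs (0.28 and -1.24).

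KISS1R, the kisspeptin receptor, was at 1.10, 4.05, 0.163 and 0.830 CPM in food-restricted pools 1 to 4 and at 0.505, 0.442, 1.46 and 1.27 CPM in well-fed pools 1 to 4. Its reads ran from 7 in food-restricted pool 3 to 169 in food-restricted pool 2, so both extremes were restricted pools, 24.8-fold apart. Restricted minus fed, the log2 fold change was 0.74 (95% interval -1.01 to 2.48) and turned to -0.38 without food-restricted pool 2. In the alternative analyses that kept every pool it ran from 0.08 to 0.74, with 0.13 in limma voom. An exact two-sided permutation test gave p = 0.857 (n = 4 each). KISS1R was higher in each of the 4 pools on the one side of the first principal component (1.10 to 4.05 CPM) than in each of the other 4 (0.163 to 0.830 CPM). Across all tested genes, 23.1% were parted in this way, and 2 of the 10 axis genes were, KISS1R and NPVF. Within the sides the difference between the feeding groups was -0.27 (the side with the lower levels) and 0.62. The magnocellular genes AVP and OXT, summed, were also parted there, at 142 to 289 CPM against 27.3 to 78.3 CPM. So was the sum of the 5 other arcuate peptide genes, at 568 to 777 CPM against 218 to 484 CPM. All 5 were higher on average on the side where KISS1R was high. Of them only POMC was parted by itself, at 233 to 359 CPM against 50.5 to 118 CPM. AGRP, NPY, CARTPT and GHRH overlapped between the sides. The gonadotroph marker LHB was parted, at 50.5 to 117 CPM against 8.55 to 33.1 CPM, but the sum of its marker list overlapped. Markers of endothelium and glia were parted there too, in both directions. CLDN5 (14.4 to 22.7 against 2.28 to 4.29 CPM) and MBP (1920 to 2580 against 1100 to 1390 CPM) were higher where KISS1R was high. FLT1 (28.2 to 31.7 against 32.5 to 38.5 CPM) and GJA1 (230 to 256 against 265 to 340 CPM) were lower. The part of any of these in the KISS1R levels was not tested. Pools of the same group varied in KISS1R by 112% (restricted) and 56.6% (fed), against 13.9% from counting.

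**Figure D3:**
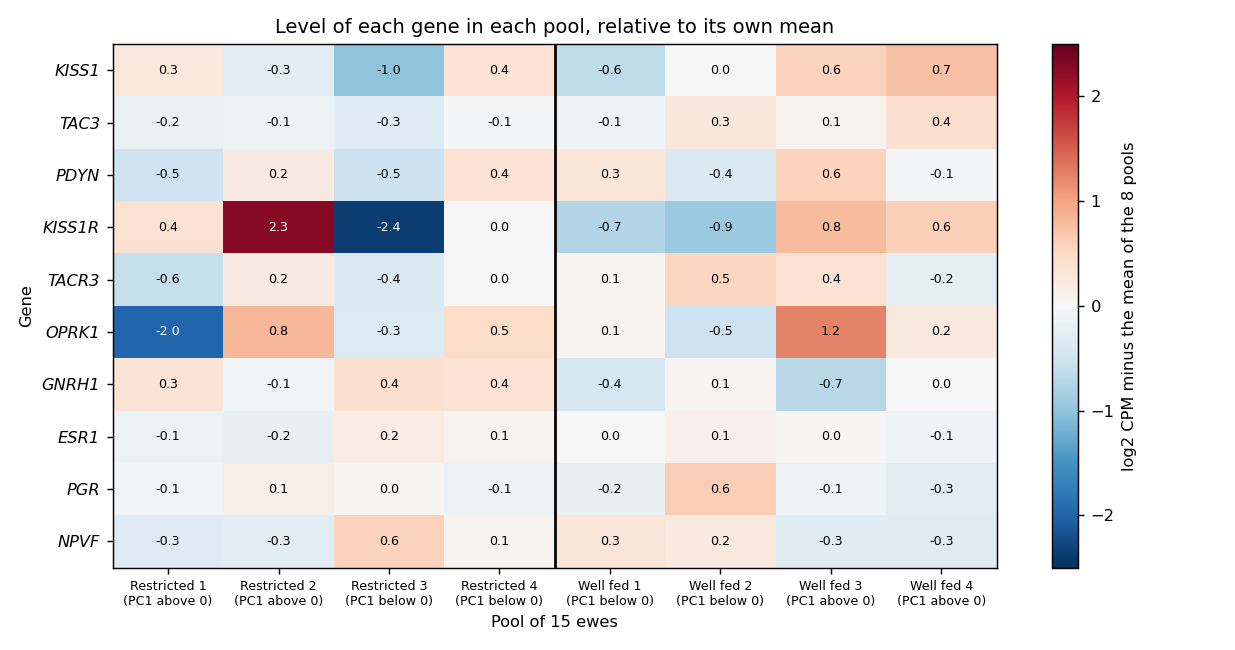
Heat map of log2 CPM minus the mean of the 8 pools (colour, and the number in each cell) for 10 genes (rows) in the 8 pools (columns), with the PC1 side (above or below 0 on the first principal component) under each pool. The strongest colours are in KISS1R and OPRK1, and in PDYN food-restricted pools 2 and 4 and well-fed pools 1 and 3 are the 4 highest.

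GNRH1, the precursor of GnRH, was higher with restriction and had the next smallest p of the 10. It was at 6.06, 4.57, 6.30 and 6.17 CPM in food-restricted pools 1 to 4 and at 3.60, 5.02, 2.96 and 4.84 CPM in well-fed pools 1 to 4. Food-restricted pools 1, 3 and 4 were close together above all fed pools, and food-restricted pool 2 lay among the fed pools. Means were 5.78 ± 0.807 and 4.11 ± 0.989 CPM (SD, n = 4 each). This is a log2 fold change of 0.49 (95% interval -0.0013 to 0.99), or 1.41-fold. The unadjusted p was 0.0505 in edgeR, and 313 tested genes had a p as small. Exact two-sided permutation gave p = 0.0857 (n = 4 each). The difference was alike on both sides of the first principal component (0.55 and 0.47), and without single pools it was between 0.38 and 0.61. Pools held 142 to 270 GNRH1 reads, for which counting gives a coefficient of variation of 6.96%, against 14.0% (restricted) and 24.1% (fed) observed.

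ESR1, the oestrogen receptor alpha through which oestradiol acts on KNDy neurons, was the most precisely measured of the 10 genes by its interval. It was at 39.3, 37.8, 49.1 and 45.8 CPM in food-restricted pools 1 to 4 and at 43.5, 47.5, 44.2 and 39.9 CPM in well-fed pools 1 to 4. The highest and the lowest pool were both restricted. The log2 fold change was -0.03 with a 95% interval of -0.30 to 0.25, which on the linear scale runs from 0.814-fold to 1.19-fold. Within the sides of the first principal component it was 0.06 and -0.12. Its sign turned when food-restricted pool 1 (0.02), food-restricted pool 2 (0.05) or the fed pool 2 (0.02) was left out.

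PGR, the progesterone receptor and a classical oestrogen target gene, was at 1.99, 2.32, 2.15 and 1.90 CPM in food-restricted pools 1 to 4 and at 1.85, 3.20, 1.92 and 1.72 CPM in well-fed pools 1 to 4. The pools were alike except well-fed pool 2, which was the highest. The log2 fold change was -0.05 (95% interval -0.69 to 0.58) and became 0.19 without well-fed pool 2. Within the sides of the first principal component it was -0.26 and 0.24. Among the restricted pools the coefficient of variation of 8.93% was no larger than the 10.6% that counting gives at 61 to 123 reads.

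NPVF, the RFamide precursor expressed in and around the dorsomedial hypothalamus, was at 8.64, 8.81, 16.0 and 11.4 CPM in food-restricted pools 1 to 4 and at 13.2, 12.8, 8.78 and 8.76 CPM in well-fed pools 1 to 4. Food-restricted pools 1 and 2 and well-fed pools 3 and 4 were within 8.64 to 8.81 CPM of each other, and the other 4 pools were at 11.4 to 16.0 CPM. That is the division of the first principal component, on which NPVF took the opposite side to KISS1R. Between the feeding groups the log2 fold change was 0.04 (95% interval -0.49 to 0.56), and within the sides it was 0.05 and -0.01. The sign turned when food-restricted pool 3 (-0.18) was left out, or either of the fed pools 3 (-0.04) and 4 (-0.05).

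Ordered by fold, the 10 genes ran from TACR3 (0.773-fold), TAC3 (0.787-fold), OPRK1 (0.790-fold), KISS1 (0.797-fold), PDYN (0.863-fold), PGR (0.963-fold) and ESR1 (0.983-fold) to NPVF (1.03-fold), GNRH1 (1.41-fold) and KISS1R (1.67-fold). The 95% intervals of TACR3, TAC3, OPRK1, KISS1 and PDYN all contained the estimates of the others of these 5. These 5 stand together because they are the lowest of the order, so this is no sign of a shared change. The intervals of TACR3, OPRK1, KISS1 and PDYN also included no difference between the groups. The plot of fold changes gives the intervals beside those of the wider lists and of AGRP (3.06-fold, a log2 fold change of 1.61 with a 95% interval of 1.24 to 1.99).

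**Figure D4:**
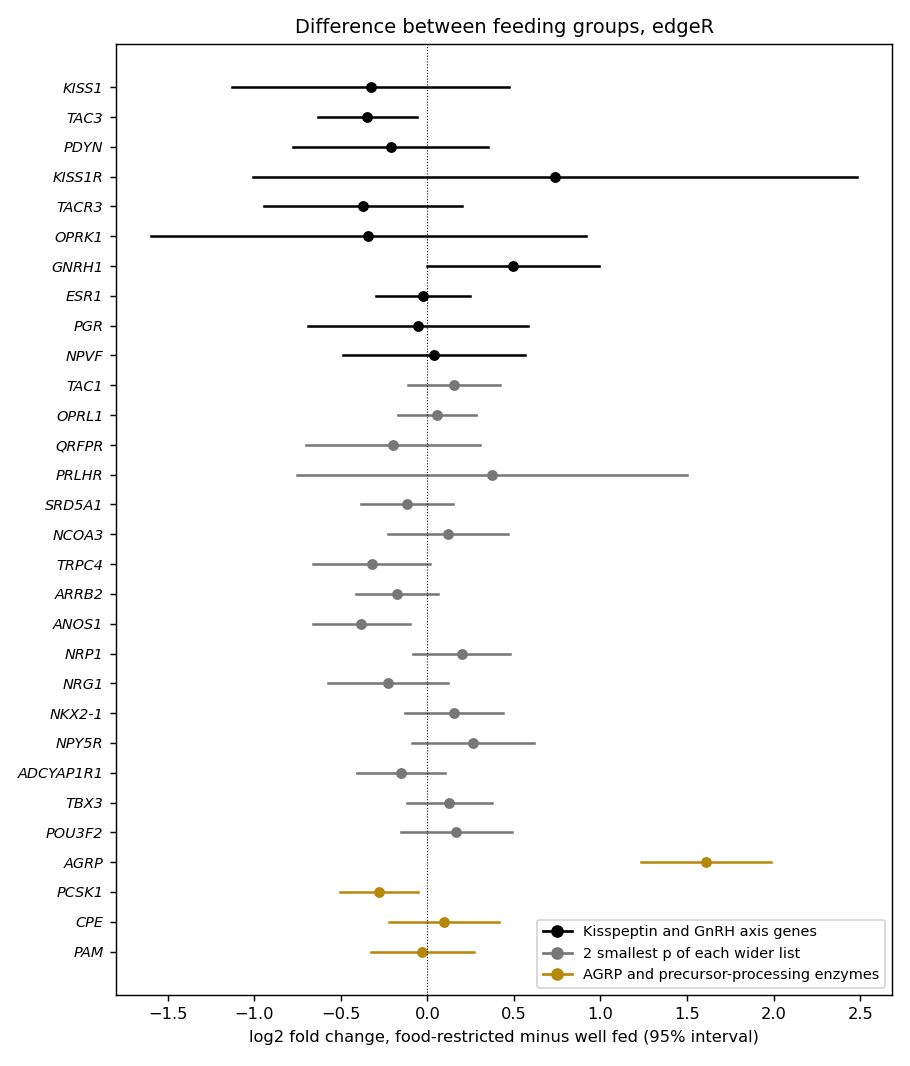
Log2 fold change, food-restricted minus well fed (x axis), with the 95% interval from the edgeR fit, for the 10 axis genes (black), the 2 genes of smallest p in each wider list (grey), and AGRP with 3 precursor-processing enzymes (gold). The intervals of TAC3, ANOS1, PCSK1 and AGRP leave out 0, and of these only AGRP passed adjustment over all genes.

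Precursors such as these become active peptides through cleavage, trimming and amidation. PCSK1, a prohormone convertase, was at 285, 287, 344 and 286 CPM in food-restricted pools 1 to 4 and at 395, 359, 373 and 330 CPM in well-fed pools 1 to 4. Only food-restricted pool 3 reached into the fed range. The log2 fold change was -0.28 (95% interval -0.50 to -0.05, unadjusted p = 0.0206), and no call resulted (adjusted p = 1 in edgeR). CPE, the carboxypeptidase that trims the cleaved ends, had a log2 fold change of 0.10 (95% interval -0.22 to 0.41), and PAM, the amidating enzyme, one of -0.03 (95% interval -0.32 to 0.27).

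Around the 10 genes, 8 lists of the wider pathway named 99 genes, of which 97 had a row and 86 were tested. None was called in either direction by edgeR, 38 were higher and 48 lower, and the median log2 fold change was -0.02, beside 0.01 over all genes tested. At an unadjusted p under 0.05 there was 1 of the 86 (1.16%, against 1.7% of all tested genes), ANOS1. This gene encodes anosmin-1, an extracellular matrix protein needed for the migration of GnRH neurons into the brain. ANOS1 was at 49.9, 57.3, 58.9 and 52.7 CPM in food-restricted pools 1 to 4 and at 60.8, 69.2, 85.4 and 69.4 CPM in well-fed pools 1 to 4. The groups did not overlap in ANOS1, with a log2 fold change of -0.38 (95% interval -0.66 to -0.10), nor in ARRB2 (-0.18, 95% interval -0.41 to 0.06), which encodes a beta-arrestin. These 2 of 86 genes stand beside 1.6% of all tested genes without overlap, a share near theirs.

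**Figure D5:**
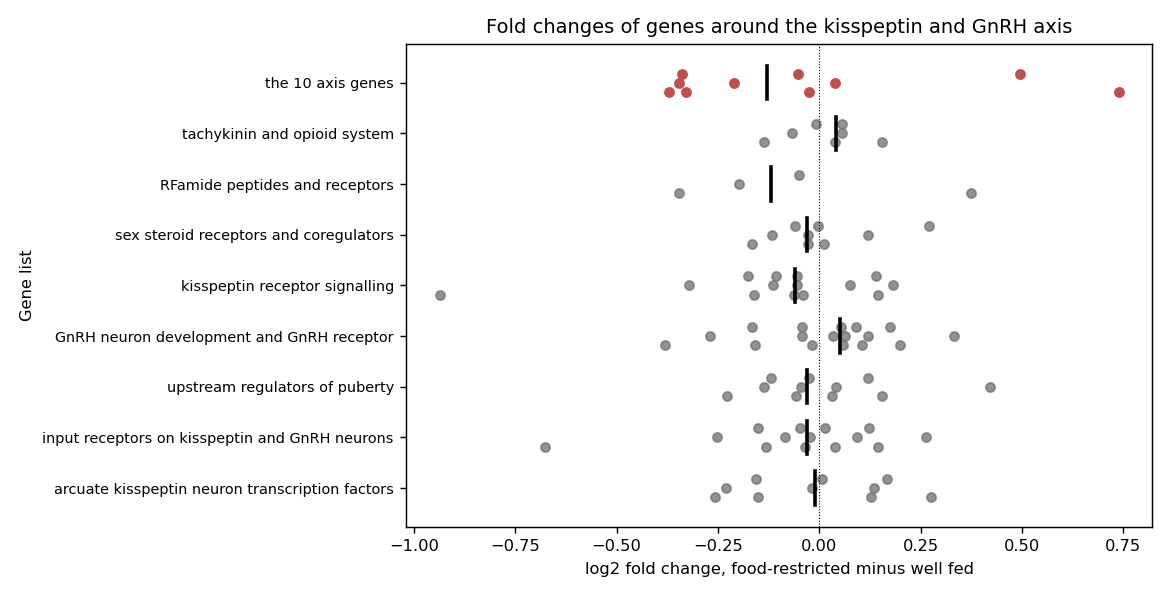
Log2 fold change, food-restricted minus well fed (x axis), of each tested gene (points) of 8 lists around the kisspeptin and GnRH axis and of the 10 axis genes (top), with the median of each list as a black bar. The medians of the 8 lists lie between -0.12 and 0.05.

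In the list of GnRH neuron development and the GnRH receptor, 10 of 17 tested genes were higher and 7 lower (median 0.05), with NRP1, a semaphorin receptor, at 0.20 (95% interval -0.08 to 0.48). Kisspeptin receptor signalling, the Gq and phospholipase C route with its calcium channels and arrestins, had 4 of 14 higher and 10 lower (median -0.06). Its member of smallest p was TRPC4, a cation channel opened downstream of such receptors, at -0.32 (95% interval -0.66 to 0.02). Other tachykinin and opioid genes had 4 of 7 higher (median 0.04), among them TAC1, the substance P precursor, at 0.15 (95% interval -0.11 to 0.42), and OPRL1, the nociceptin receptor, at 0.06. The RFamide list had 1 of 4 higher (median -0.12), with QRFPR at -0.20 and PRLHR at 0.37, and its intervals were wide. NPFFR1, the receptor for NPVF peptides, had 38 reads over all 8 pools and was not tested.

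Among sex steroid receptors, coregulators and enzymes, 3 of 9 were higher (median -0.03), with SRD5A1, a steroid 5-alpha-reductase, at -0.12 and NCOA3, a receptor coactivator, at 0.12. ESR2, the oestrogen receptor beta, had 84 reads over all pools and was not tested. Regulators known from puberty had 5 of 11 higher (median -0.03), with NRG1 at -0.23 and the transcription factor NKX2-1 at 0.16. Receptors by which other signals reach these neurons had 6 of 14 higher (median -0.03), with the neuropeptide Y receptor NPY5R at 0.26 (95% interval -0.09 to 0.62) and the PACAP receptor ADCYAP1R1 at -0.15. Transcription factors of arcuate neurons were split evenly, 5 higher and 5 lower (median -0.01), with TBX3 at 0.13 and POU3F2 at 0.17.

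The genes whose log2 CPM followed a KNDy or GnRH precursor most closely over the 8 pools were sought among 13701 tested genes with a symbol and a mean of at least 1 CPM. For PDYN they were WNT8B (Pearson r = 0.987), COL12A1 (0.969), C25H10orf105 (0.965) and DPH1 (0.961). WNT8B, a secreted Wnt ligand, was at 1.24, 2.87, 1.28 and 3.27 CPM in food-restricted pools 1 to 4 and at 3.32, 1.82, 4.71 and 2.11 CPM in well-fed pools 1 to 4. Its 4 highest pools were those of PDYN, which restates how it was chosen. For KISS1 the closest were LIMD2 (0.972), AGTRAP (0.948), LGALS3BP (0.940) and TUBG1 (0.938), and for TAC3 they were CD63 (0.959), TUBA1C (0.953), ETHE1 (0.938) and SCTR (0.927). For GNRH1 they were ABHD17C (0.949), DNASE1L3 (0.945), KHDRBS3 (0.936) and H2AFZ (0.934). No gene stood in more than 1 of these 4 sets. With 8 pools and so many candidates, such values describe these libraries only.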

How the data were processed

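The authors deposited 1 table of raw read counts, with genes in rows and pools in columns. Per the labels' protocols, RNA was extracted with TriReagent and stranded TruSeq mRNA libraries were built. The submitters' processing notes name, without order, featureCounts 2.0.0, TopHat2 2.1.1, Bowtie2 2.3.5.1, bcl2fastq 2.20, FastQC and SAMtools 1.9. The genome build, annotation and strand setting were not given in the sources used here, and no coordinates are printed. A RefSeq gene table (sheep, assembly ARS-UI_Ramb_v3.0) held 83.6% of the gene IDs and was used for names and neighbours only.

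The tests were run with edgeR 4.0.16 in R 4.3.3: filterByExpr (minimum count 10, minimum total 15), TMM scaling and the quasi-likelihood F test with p adjusted by Benjamini-Hochberg over the 18193 genes tested, threshold 0.05. Fold changes compare restriction with the fed state, with SE from F and intervals from the t distribution of the fit. Single values had an exact two-sided permutation test over pools, on log2 CPM (prior count 2) or on log2 ratios of counts (0.5 added). Shifts not refused are those at which that test keeps p above 0.05. The alternatives were other scalings and filters, the replicate number or the side of the first principal component (PC1) as a block, 1 surrogate variable, each pool left out, and other tools, with DESeq2 1.42.0, limma 3.58.1 and sva 3.50.0. The fit was also run on simulated data, but how often it would call changes of the sizes seen here is not reported. The 10 genes, the lists and the tests were chosen with earlier results of these data known. Genes named beside the 10 were, by rule, the 2 of smallest p in each list, the 4 most like KISS1, TAC3, PDYN and GNRH1, AGRP, and precursor-processing enzymes, of which PCSK2 is not analysed here. NPFFR1, ESR2, AVP, OXT, POMC, CGA, LHB, CLDN5, MBP, FLT1 and GJA1 were singled out after their values were seen. No 2 pools of a group agreed within counting error (chi-square divided by its degrees of freedom was at least 25). Whether a ewe could be in several pools is not stated in the labels, and p-values measure only the spread between these pools.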

Additional observations from a re-analysis of the deposited data

Results flagged for a closer look

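In 2 of 26 sets of 4 pools (10 genes and 3 ratios in 2 groups) a single pool stood far from the other 3 by Dixon's criterion, which chance meets in about 1 of 20 such sets. GNRH1 was at 4.57 CPM in food-restricted pool 2, where the other restricted pools were at 6.06 to 6.30 CPM. Without that pool its log2 fold change was 0.61. PGR was at 3.20 CPM in well-fed pool 2, where the other fed pools were at 1.72 to 1.92 CPM.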

How the results depend on the processing

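The number of genes called over all genes was 1, and it was 1 under the other 3 scalings, both other filters and limma voom. It was 6 with the PC1 side as a block, 7 with 1 surrogate variable, 4 with DESeq2, and 0 without any 1 of the 8 pools; the causes were not tested. Same-numbered pools did not deviate together (correlations between -0.42 and -0.207, and no food-restricted pool was closest to the fed pool of its number). With the replicate number as a block 0 genes were called, and the 3 ratios differed by 0.01, 0.11 and -0.10.

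Signs turned without single pools only, among the alternatives run. Without food-restricted pool 4, PGR was at 0.00. ESR1 ran from -0.10 to 0.05, KISS1R from -0.38 to 1.11, NPVF from -0.18 to 0.15, OPRK1 from -0.71 to 0.12 and PGR from -0.15 to 0.19. The ratios ran from -0.16 to 0.24 (KISS1 to TAC3), from -0.09 to 0.29 (PDYN to TAC3) and from -0.43 to 0.14 (KISS1 to PDYN). KISS1, TAC3, PDYN, TACR3 and GNRH1 kept their sign under all 18 alternatives, between -0.54 and -0.11, -0.44 and -0.26, -0.37 and -0.03, -0.50 and -0.24, and 0.38 and 0.61. The lowest pool held 7 reads of KISS1R and 15 of OPRK1, but in both genes the spread between pools was well above counting error.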

Other observations

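The 4 pools highest in PDYN (food-restricted 2 and 4, well-fed 1 and 3) were also the 4 highest in C25H10orf105. This is 1 of the 4 genes picked above for their likeness to PDYN, so that the shared pools restate that choice. C25H10orf105 was at 0.211, 3.83, 0.233 and 2.49 CPM in food-restricted pools 1 to 4 and at 2.02, 0.520, 3.84 and 0.901 CPM in well-fed pools 1 to 4. POMC, of the other main class of arcuate peptide neurons, was at 233, 267, 56.7 and 118 CPM in food-restricted pools 1 to 4 and at 50.5, 73.3, 244 and 359 CPM in well-fed pools 1 to 4. POMC therefore parted the pools as KISS1R did, and its 4 highest pools were not those of PDYN. Neither set of pools followed the feeding groups, and the labels name neither.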
